A study of Mus musculus with 6 samples.

Results

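Microglia are the resident macrophages of the brain, and the results here concern 31 genes that mark them at rest or in an activated state. The genes were taken from a list of gene symbols that was chosen with earlier results of these data known. Shares of members set beside shares of all genes are therefore descriptions. The symbols were matched to the gene identifiers of the count files and kept where at least 3 libraries held 10 or more reads. All 31 listed genes met that rule, out of 49315 genes in the files, of which 17185 were tested. RNA came from the cerebral cortex of wild-type mice in 2 groups of 3 libraries. Every mouse received a retro-orbital AAV-PHP.eB vector at 21 days of age, a capsid that carries its cargo across the blood-brain barrier of mice, with a Gfap promoter driving GFP and a hairpin. In the control group the hairpin was a scrambled sequence (AAV-PHP.eB-Gfap-GFP-shScr, called shScr), and in the other it targeted Fabp7 (AAV-PHP.eB-Gfap-GFP-shFABP7, called shFabp7). The Gfap promoter directs the hairpin to astrocytes, so microglia were not the intended target cell. From 4 months of age all mice were injected with lipopolysaccharide (LPS, a component of the bacterial cell wall) at 1 mg/kg weekly, 3 times, and cortex was taken 24 h after the last injection. Both groups carried vector and LPS, so the effect of either alone was not measured.

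Microglia arise from yolk sac progenitors and depend on the receptor CSF1R and its ligands to survive. At rest they watch their surroundings through purine and chemokine receptors such as P2RY12 and CX3CR1. In many inflamed or degenerating brains they lower these receptors and raise genes of phagocytosis and lysosomal digestion. A set of immune receptors with short cytoplasmic tails, among them TREM2 and Fc receptors, signals through small adaptor proteins, TYROBP (DAP12) and the Fc receptor gamma chain, whose tails carry a tyrosine motif known as an ITAM.

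Libraries held 16914012 to 18991235 counts. Fabp7, the target of the hairpin, read 26.3, 15.2 and 15.8 in the control libraries, in order of their number, and 5.56, 2.49 and 3.52 in the knockdown libraries, in CPM (read counts scaled to library size by TMM). The log2 fold change, shFabp7 minus shScr, came to -2.31 (SE 0.35, adjusted p of 0.0704 in edgeR and 3.32e-12 in DESeq2). Of the 6 libraries 3 were from males and 3 from females, as read from Xist and Y-linked genes, with 2 males in shScr and 1 in shFabp7. One of these readings was mixed: shFabp7 library 2, read as female, held 13.6 CPM of 4 Y-linked genes, against 1.47 and 1.92 CPM in the other females and 205 to 210 CPM in males, and its Xist level was 769 CPM against 936 and 954 CPM. Summed markers of hippocampus were higher in shScr libraries 1 and 3 (255 and 266 CPM) than in the other 4 (126 to 147 CPM).

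No member passed an adjusted p of 0.05 in edgeR's quasi-likelihood test, in either direction. Across all genes tested, 0.0582% passed as lower in shFabp7 and 0.0582% as higher. DESeq2, run as an alternative, called 2 members lower, Olfml3 and Fcrls, and 0 higher, where 1.8% of all genes tested were called lower and 2.26% higher. At an unadjusted p under 0.05 in edgeR, 12 of the 31 members (38.7%) were lower, against 8.32% of all genes, and 1 member (3.23%) was higher, against 8.44%. With the regional score as a covariate, a contrast of hippocampal, choroid plexus and ependymal markers with cortical excitatory neuron markers, the 12 became 4 (12.9%), while the share of all genes became 3.07%. That score was -4.22, -5.88 and -4.32 in shScr and -5.82, -6.49 and -6.07 in shFabp7. It ran largely with the group, so this fit can hardly separate the 2. SEs were wider with it, as for Tyrobp (0.21 against 0.13). Leaving out shFabp7 library 2 gave 7 members (22.6%) and 4.77% of all genes. All 3 shFabp7 libraries lay below all 3 shScr libraries for 14 members (45.2%), against 11.5% of all genes. The reverse held for 1 member, Gpr34 (3.23%), against 11.4%. The log2 fold change was below 0 for 22 of the 31 (71.0%), against 51.5% of all genes. Its median was -0.13 over the members and -0.0065 over all genes tested. In whole tissue, fewer microglia and less of an RNA per microglial cell cannot be told apart.

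**Figure D1:**
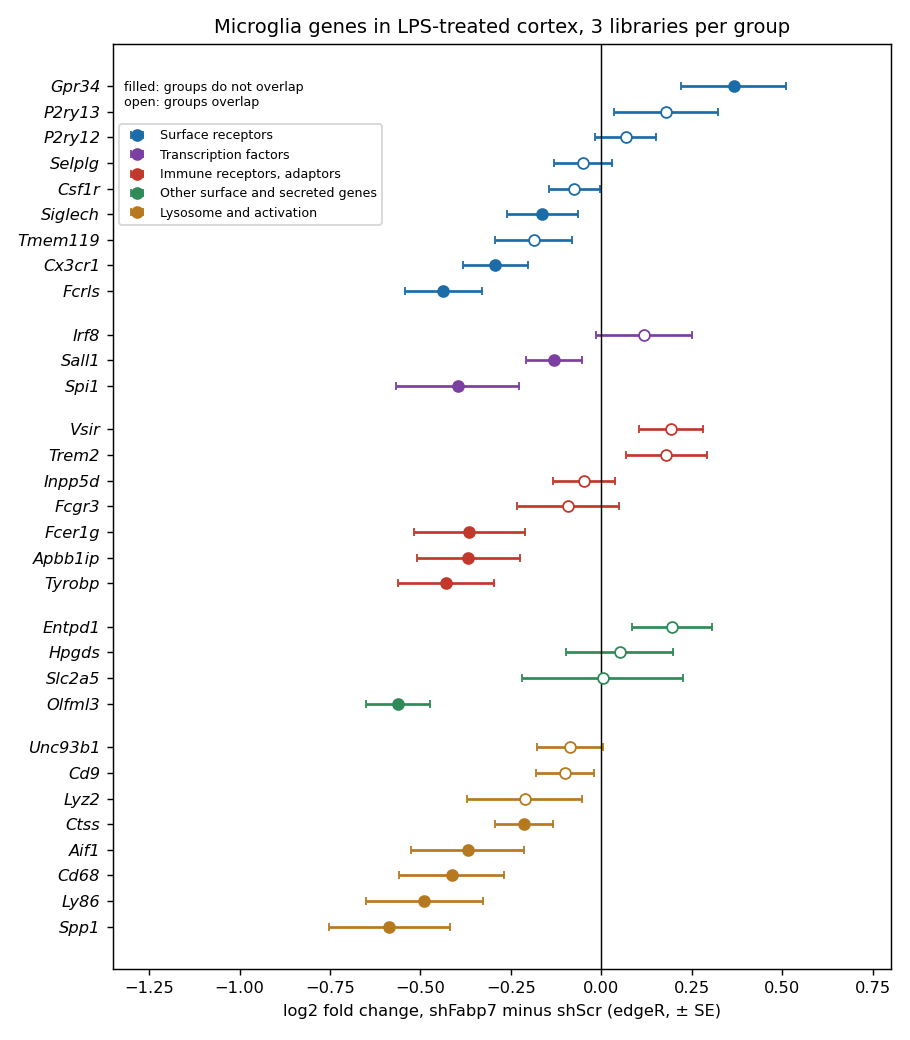
Log2 fold change (shFabp7 minus shScr, horizontal axis) of each of the 31 microglia genes from edgeR, with its SE as the bar, 3 libraries per group, grouped by role. Filled points mark genes whose groups do not overlap, 14 below 0 and 1 above, and all 8 lysosome and activation genes lie below 0.

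The members did not share one common value. Their log2 fold changes ran from -0.59 (Spp1) to 0.37 (Gpr34). Over 16 alternative settings, 17 members were below 0 in every one and 7 were above 0 in every one. Those 7 were P2ry12, P2ry13, Gpr34, Irf8, Trem2, Vsir and Entpd1. The settings refit the same 6 libraries or subsets of them, so they are not independent repeats. In the main fit P2ry12, at 0.07 (SE 0.09), and Irf8, at 0.12 (SE 0.13), lay within 1 SE of 0. The share of all genes that kept their sign was not computed. Averaged over the members, log2 CPM came to 4.13, 4.08 and 4.18 in the control libraries and to 3.93, 3.95 and 4.06 in the knockdown libraries, in order of their number. The groups did not overlap on this mean, but shFabp7 library 3 lay close to shScr library 2. Of the 31 genes, 22 had their lowest level in shFabp7 library 1 or 2, 10 in the first and 12 in the second, while shFabp7 library 3 held the lowest level of 1 gene.

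**Figure D2:**
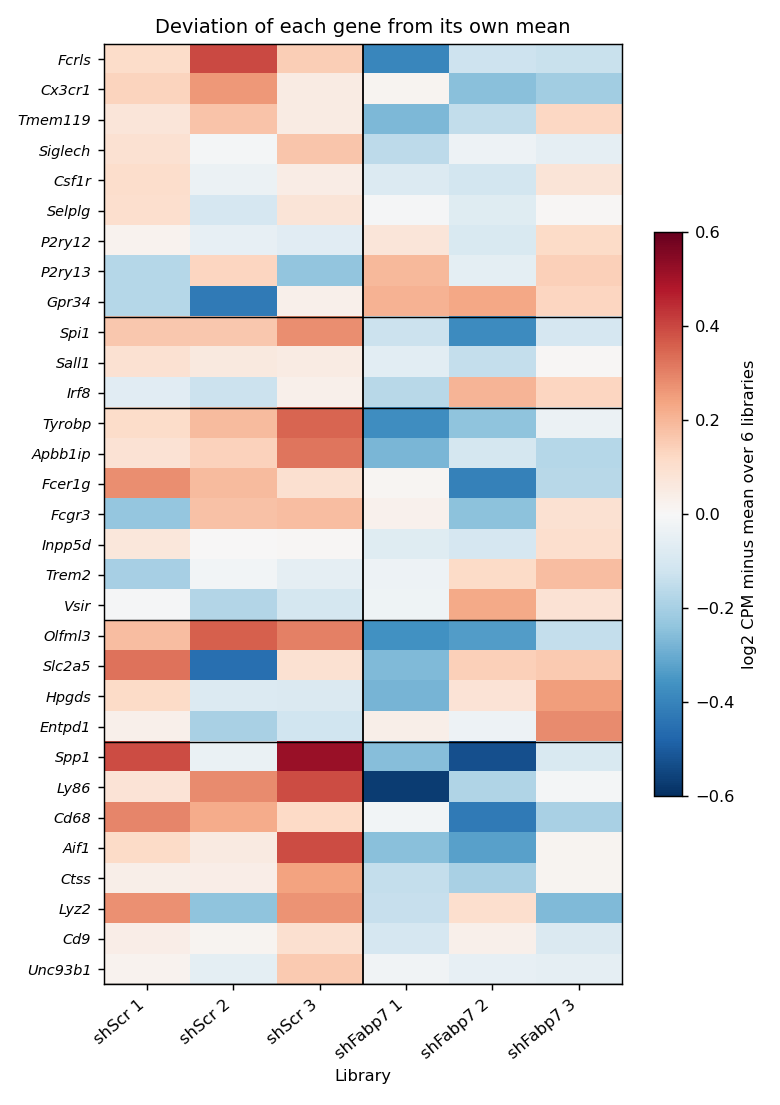
Each row is a microglia gene and each column a library, and the colour is the log2 CPM in that library minus the gene's mean over the 6 libraries. Red cells, above the mean, fill 25, 17 and 25 of the 31 rows in shScr libraries 1, 2 and 3, and 7, 8 and 17 in shFabp7 libraries 1, 2 and 3.

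Compared per length, as RPKM (CPM per kilobase of exon, mean of 6 libraries), the most abundant member was Ctss at 62.2, followed by Csf1r at 27.8, Tyrobp at 15.6 and Fcrls at 13.8. The least abundant were Apbb1ip at 0.934, Irf8 at 1.42, Slc2a5 at 1.55 and Spi1 at 1.57 RPKM. Raw reads per library ranged from 53, for Spi1 in shFabp7 library 2, to 2685, for Csf1r in shScr library 1. Genes with few reads carry the wider errors.

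Among 9 surface receptors of homeostatic microglia, 6 had a log2 fold change below 0 and 3 above, with a median of -0.07. Of all genes tested, 51.5% were below 0. Fcrls, an Fc receptor-like protein that distinguishes microglia from other macrophages, spans bases 87250758 to 87263738 of chromosome 3, minus strand (ENSMUSG00000015852). It stood at 34.2, 41.7 and 35.0 CPM in the shScr libraries and at 24.1, 29.0 and 28.8 CPM in the shFabp7 libraries. Every shFabp7 value was below every shScr value, and the highest of the former left a gap of about 5 CPM to the lowest of the latter. Fcrls had a log2 fold change of -0.44 (SE 0.11, adjusted p of 0.108 in edgeR). In DESeq2 the adjusted p was 0.0332, and it ranged from 0.000271 to 0.375 over the alternatives. Its value was -0.68 with the regional score.

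Cx3cr1 encodes the receptor through which microglia receive fractalkine from neurons. Its libraries read 52.4, 57.2 and 49.6 CPM in shScr and 48.4, 40.2 and 41.3 CPM in shFabp7. The groups did not overlap, though shFabp7 library 1 came within about 1 CPM of shScr library 3. The log2 fold change was -0.29 (SE 0.09, adjusted p of 0.169 in edgeR). Siglech, a sialic acid-binding receptor, also had groups that did not overlap, at 15.2 to 17.1 CPM in shScr and 13.7 to 15.0 CPM in shFabp7, with a log2 fold change of -0.16 (SE 0.10), or -0.09 with the regional score.

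Gpr34, a receptor for lysophosphatidylserine, was the single member with every shFabp7 library above every shScr library. It stood at 7.67, 6.44 and 8.84 CPM in shScr and at 9.98, 10.2 and 9.45 CPM in shFabp7. The difference came to 0.37 on the log2 scale (SE 0.14, adjusted p of 0.249 in edgeR). Leaving out shScr library 2, its lowest library, gave 0.26, and adding the regional score gave 0.61. P2ry12 and P2ry13, the neighbouring ADP receptor genes of microglia on chromosome 3, had 0.07 (SE 0.09) and 0.18 (SE 0.14). P2ry12 read 26.4, 25.2 and 24.8 CPM in shScr and 27.4, 24.4 and 28.2 CPM in shFabp7, so the groups overlapped. The P2ry13 value was 0.0075 with the regional score.

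Csf1r, the most abundant of these receptors per length, read 146, 132 and 140 CPM in shScr and 128, 126 and 143 CPM in shFabp7. The groups overlapped, and the log2 fold change of -0.07 was about the size of its SE of 0.07. Exons of Hmgxb3 on the opposite strand cover 15.1% of the Csf1r exon sequence, and with the strand setting of the counting not given, reads of both genes could mix. Tmem119, a transmembrane protein used as a microglia marker, had -0.19 (SE 0.11). Here shFabp7 library 3, at 28.8 CPM, lay above shScr libraries 1 and 3 (27.8 and 27.4 CPM). The value was -0.10 without shFabp7 library 1 and -0.31 without shFabp7 library 3. Selplg, the P-selectin ligand, had -0.05 (SE 0.08). With the regional score, Csf1r had 0.02 and Selplg 0.11.

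**Figure D3:**
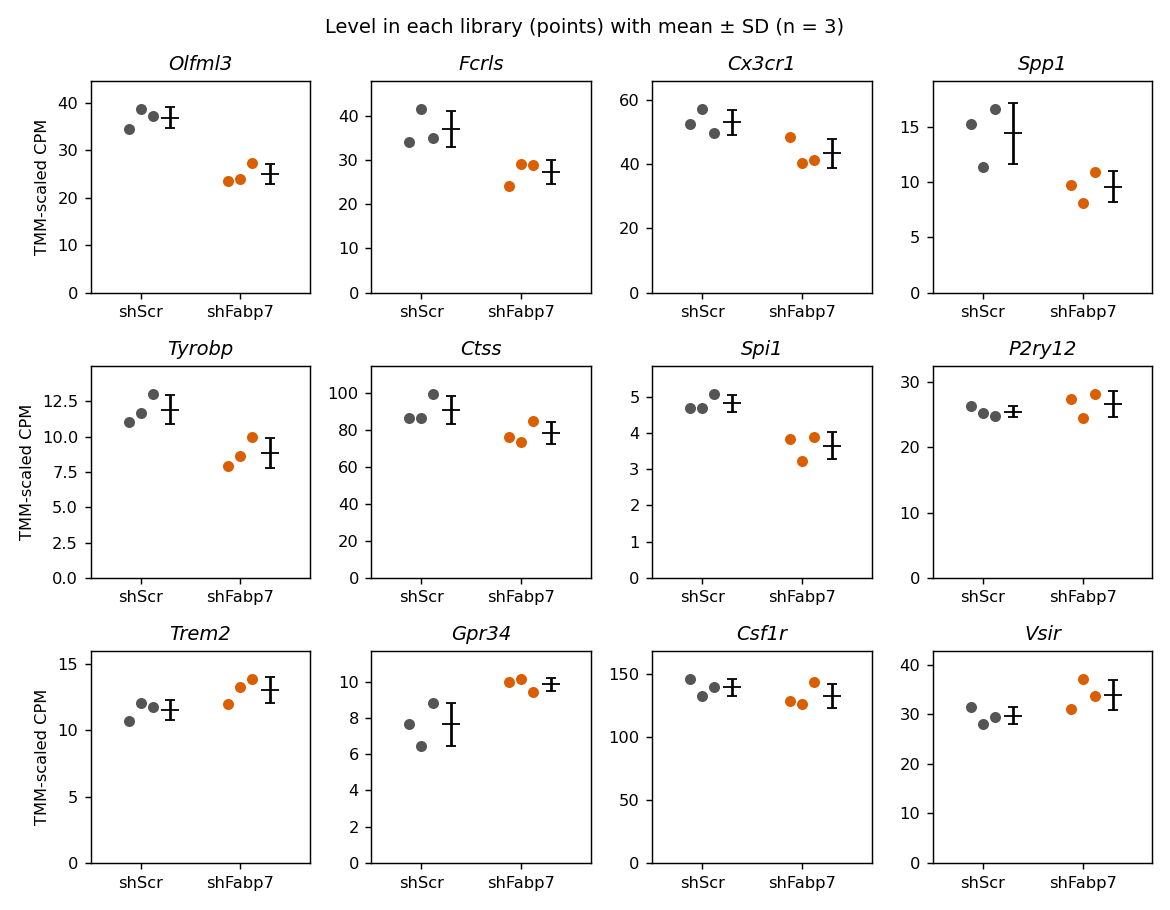
Level of 12 of the microglia genes in TMM-scaled CPM (vertical axes start at 0), 1 point per library, with mean ± SD over 3 libraries beside them. Olfml3, Fcrls, Cx3cr1, Spp1, Tyrobp, Ctss and Spi1 show shFabp7 points below all shScr points, Gpr34 shows them above, and P2ry12, Trem2, Csf1r and Vsir overlap.

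Within libraries, receptor genes were also compared with each other. The ratio of P2ry12 to Cx3cr1 CPM was 0.504, 0.441 and 0.501 in shScr and 0.565, 0.608 and 0.683 in shFabp7, with no overlap. This pair was chosen after the values were seen, and the difference was not tested. Because the fold changes of both genes were known when the pair was picked, the lack of overlap is a description only. A ratio also does not say which gene moved.

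The 3 transcription factors on the list are Spi1, which encodes PU.1, a factor that myeloid cells require, Irf8, its partner in microglial development, and Sall1, which maintains microglial identity. Spi1 read 4.68, 4.68 and 5.08 CPM in shScr and 3.83, 3.22 and 3.90 CPM in shFabp7. The groups were apart, with a log2 fold change of -0.40 (SE 0.17, adjusted p of 0.281 in edgeR). Sall1 stood at 29.4, 28.8 and 28.6 CPM in shScr and at 26.4, 25.0 and 27.8 CPM in shFabp7, also apart, with a smaller value of -0.13 (SE 0.08). Irf8 read 9.52, 9.15 and 10.2 CPM in shScr and 8.91, 11.5 and 10.9 CPM in shFabp7. Its groups overlapped and its value was 0.12 (SE 0.13).

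Because PU.1 binds purine-rich DNA at many myeloid genes, the promoters of the members were searched for the core letters GAGGAA on either strand, in the 250 bases before each start site. RefSeq windows of build GRCm38.p6, the build whose coordinates the files follow, were at hand for 24 of the 31 members. Of these, 11 held the letters in at least 1 window, in 12 of their 30 windows, and 23.3% of 32851 windows of all genes did. Among the 12 members with a window whose shFabp7 libraries all lay below shScr, 5 held them (41.7%). The share was 45.8% over all 24 members with a window, so the letters were not more frequent in the lower members. The 3 with the lowest unadjusted p are shown, read 5′ to 3′ on the gene's strand and ending at the base before the start site, with the match in capitals. They let the match be seen in its setting, and a match is not a bound site.

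Fcrls, chr3:87263525-87263774, minus strand: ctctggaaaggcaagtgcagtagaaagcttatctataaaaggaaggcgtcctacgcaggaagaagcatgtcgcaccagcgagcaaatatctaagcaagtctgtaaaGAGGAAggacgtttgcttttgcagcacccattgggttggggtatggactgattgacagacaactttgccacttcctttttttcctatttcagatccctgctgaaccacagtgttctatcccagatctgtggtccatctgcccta
Spp1, chr5:104434861-104435110, plus strand: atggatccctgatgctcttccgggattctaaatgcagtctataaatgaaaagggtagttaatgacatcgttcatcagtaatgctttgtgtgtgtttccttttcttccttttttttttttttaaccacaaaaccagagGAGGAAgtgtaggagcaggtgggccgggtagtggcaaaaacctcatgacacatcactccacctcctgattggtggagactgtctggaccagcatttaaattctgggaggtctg
Cd68, chr11:69666171-69666420, minus strand: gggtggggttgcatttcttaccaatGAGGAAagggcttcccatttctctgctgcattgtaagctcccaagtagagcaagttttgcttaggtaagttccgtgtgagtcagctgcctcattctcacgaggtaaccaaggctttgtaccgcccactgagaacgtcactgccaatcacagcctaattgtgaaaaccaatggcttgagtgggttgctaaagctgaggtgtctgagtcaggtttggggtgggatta

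The matches begin 144, 113 and 225 bases before the RefSeq start sites of Fcrls, Spp1 and Cd68. For Fcrls that start site differs from the one in the count files. It lies inside the span of 87250758 to 87263738 given above, and so does the match. All 3 are on the strand of the gene.

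Immune receptors and their signalling partners were split. Of 7 members, 5 were below 0 and 2 above, with a median of -0.09, where 51.5% of all genes tested were below 0. Tyrobp, the ITAM adaptor shared by TREM2 and other receptors, spans bases 30413760 to 30417585 of chromosome 7, plus strand (ENSMUSG00000030579). It stood at 11.0, 11.6 and 13 CPM in shScr and at 7.89, 8.64 and 9.98 CPM in shFabp7. The groups were apart, and the log2 fold change was -0.43 (SE 0.13, adjusted p of 0.171 in edgeR). Fcer1g, the Fc receptor gamma chain and the other ITAM adaptor, read 8.49, 7.98 and 7.48 CPM in shScr and 7.05, 5.29 and 6.25 CPM in shFabp7. It was also apart, at -0.36 (SE 0.15, adjusted p of 0.272 in edgeR).

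Trem2, a lipid-sensing receptor that signals through TYROBP, did not share this pattern. It read 10.7, 12.1 and 11.8 CPM in shScr and 12, 13.3 and 13.9 CPM in shFabp7. The groups overlapped, and the log2 fold change was 0.18 (SE 0.11), or 0.07 with the regional score. The ratio of Trem2 to Tyrobp CPM was 0.966, 1.04 and 0.904 in shScr and 1.52, 1.54 and 1.39 in shFabp7. These ratios averaged 0.969 ± 0.0664 and 1.48 ± 0.0785 (SD, n = 3 each) and did not overlap. The pair was chosen after the values were seen, and the difference was not tested.

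Fcgr3, a low-affinity Fc receptor for IgG that pairs with the gamma chain, read 12.7, 16.8 and 16.9 CPM in shScr and 15.1, 12.5 and 15.9 CPM in shFabp7. It overlapped between groups at -0.09 (SE 0.14), and reads of Fc receptor genes can be shared with their paralogs. Inpp5d, the inositol phosphatase SHIP1 that restrains signalling below these receptors, had -0.05 (SE 0.09). Apbb1ip, the adaptor RIAM that links Rap1 to integrin activation, read 7.29, 7.55 and 8.57 CPM in shScr and 5.68, 6.39 and 6.09 CPM in shFabp7. Its groups were apart at -0.37 (SE 0.14, adjusted p of 0.238 in edgeR). Vsir, the inhibitory immune checkpoint VISTA, had 0.19 (SE 0.09) with overlapping groups.

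Of the 4 remaining surface, enzyme and secreted genes, Olfml3 stood apart from the other 3. It encodes a secreted olfactomedin-like glycoprotein and spans bases 103722222 to 103738001 of chromosome 3, minus strand (ENSMUSG00000027848). Its libraries read 34.4, 38.8 and 37.3 CPM in shScr and 23.5, 24.0 and 27.4 CPM in shFabp7. The lowest shScr library was about 7 CPM above the highest shFabp7 library, and the shFabp7 mean was 67.7% of the shScr mean. Its log2 fold change was -0.56 (SE 0.09), and the unadjusted p ranked 29 of 17185 genes. The adjusted p was 0.0562 in edgeR and 0.000545 in DESeq2, and it ranged from 9.69e-07 to 0.323 over the alternatives. The value itself ranged from -0.64 to -0.52.

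Entpd1, the ectonucleotidase CD39 that breaks down extracellular ATP, read 19.1, 16.3 and 17.2 CPM in shScr and 19.1, 18.3 and 22.7 CPM in shFabp7, an overlap. Its value was 0.19 (SE 0.11). It was 0.34 with the regional score and 0.09 without shFabp7 library 3, its highest library. Hpgds, a prostaglandin D2 synthase, read 12.7, 11.1 and 11.1 CPM in shScr and 9.68, 12.5 and 14 CPM in shFabp7, with a value of 0.05 (SE 0.15). Slc2a5, the fructose transporter GLUT5, had 0.0038 (SE 0.22). The sign of both turned in some of the alternatives.

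All 8 members of lysosomal digestion and activation had log2 fold changes below 0, with a median of -0.29. In 5 of them every shFabp7 library lay below every shScr library. Over all genes tested, 51.5% were below 0 and 11.5% had groups apart in that direction. Spp1, the secreted phosphoprotein osteopontin, read 15.3, 11.3 and 16.6 CPM in shScr and 9.74, 8.09 and 10.9 CPM in shFabp7. The groups were apart by less than 1 CPM, between shScr library 2 and shFabp7 library 3. Its value of -0.59 (SE 0.17, adjusted p of 0.15 in edgeR) was the lowest among the members. It was -0.15 with the regional score, the widest move of any member that was apart. Gm42793 on the same strand covers 18.8% of the Spp1 exon sequence, so its count is uncertain.

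Ly86 encodes MD-1, a partner of the Toll-like receptor homologue RP105. Its levels were 10.1, 11.6 and 12.6 CPM in shScr and 6.46, 8.45 and 9.50 CPM in shFabp7, apart at -0.49 (SE 0.16, adjusted p of 0.189 in edgeR). Cd68, a lysosomal membrane glycoprotein of macrophages, read 9.80, 9.31 and 8.68 CPM in shScr and 7.89, 5.96 and 6.99 CPM in shFabp7, apart at -0.41 (SE 0.14, adjusted p of 0.205 in edgeR). Aif1, the actin-binding protein IBA1 that is stained to show microglia, was apart at -0.37 (SE 0.16), from 8.62 ± 1.10 to 6.66 ± 0.855 CPM (SD, n = 3 each). Without shScr library 3 its value was -0.26, and with the regional score it was -0.20.

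Ctss encodes cathepsin S, a lysosomal protease that also cuts the invariant chain of MHC class II. It read 86.2, 86.4 and 99.4 CPM in shScr and 76.2, 73.4 and 85.0 CPM in shFabp7. The groups were apart, with the nearest libraries less than 2 CPM from each other. The log2 fold change was -0.21 (SE 0.08, adjusted p of 0.226 in edgeR), and it came to -0.14 when shScr library 3 was left out and to -0.13 with the regional score. Cd9, a tetraspanin that oligodendrocytes and astrocytes also express, read 25.8, 25.4 and 26.8 CPM in shScr and 23.4, 25.7 and 23.6 CPM in shFabp7, an overlap at -0.10 (SE 0.08). Lyz2, macrophage lysozyme, had -0.21 (SE 0.16) and 0.11 with the regional score, and its reads can be shared with its near copy Lyz1. Unc93b1, which carries endosomal Toll-like receptors to their compartment, had -0.09 (SE 0.09).

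Exon length, which the choice of members did not use, ran with their fold changes. All 9 members with under 2000 bp of exon in the files had values below 0, with a median of -0.37: Tyrobp, Fcer1g, Ly86, Cd68, Lyz2, Ctss, Aif1, Spp1 and Fcgr3. Of the 22 longer members, 13 were below 0, with a median of -0.06. Over the 31 members Spearman's rho between exon length and log2 fold change was 0.47, a description across genes that share the same 6 libraries. Over all 17185 genes tested rho was -0.0031, and genes under 2000 bp had a median of -0.0053, with 51.2% below 0. Of the longer genes 51.6% were below 0. The length limit was chosen after the values were seen, and whether length had a part in the members' values was not tested. Olfml3, with 6161 bp, and Apbb1ip, with 7414 bp, were long members with low values.

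**Figure D4:**
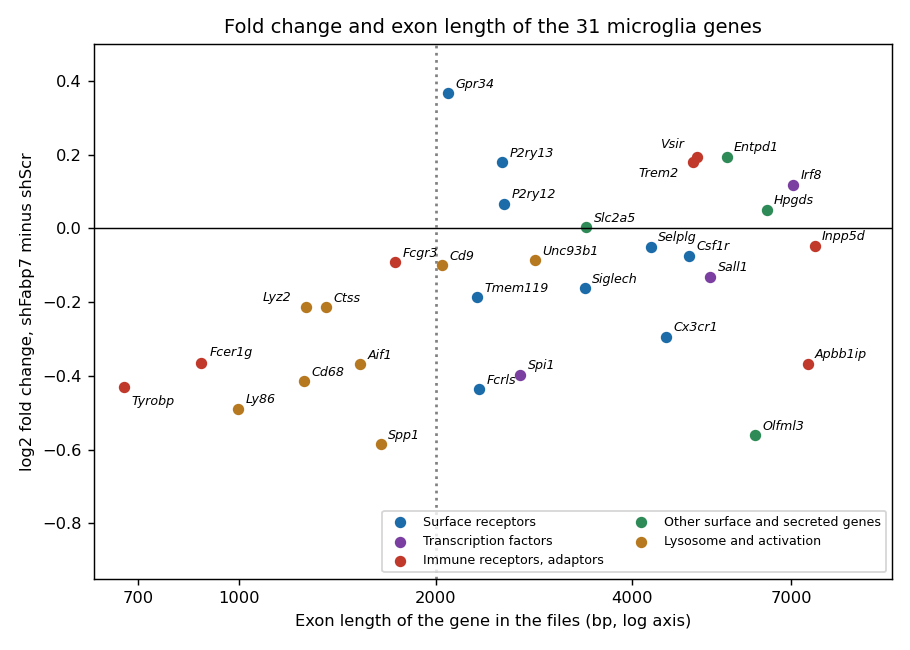
Exon length in bp (horizontal, log axis) against log2 fold change (vertical) for the 31 microglia genes, 1 point per gene, coloured by role. The dotted line is at 2000 bp, and all 9 genes to its left lie below 0, while the 22 to its right spread from -0.56 to 0.37.

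Sex is shared unevenly between the groups, so differences were also taken within it. In males, 1 shFabp7 library was set against 2 shScr libraries, and in females 2 against 1. The median difference in log2 CPM over the members was -0.18 in males and -0.21 in females, and 21 of the 31 members were below 0 in both. Olfml3 had -0.64 in males and -0.54 in females, Tyrobp -0.52 and -0.49, Spp1 -0.43 and -0.82, and Fcrls -0.65 and -0.28. Gpr34 was above 0 in both, at 0.50 and 0.15. With shFabp7 library 2, whose reading was mixed, left out of the females, the median was -0.18 and 19 of 31 members were below 0. Olfml3 then had -0.44, Tyrobp -0.38, Spp1 -0.60, Fcrls -0.28 and Gpr34 0.09. The share of all genes below 0 was not computed within sex, so these counts of members have no background to be read against.

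Other genes expressed by microglia, a list of 22 without the members, had a median of -0.10, with 13 below 0 and 9 above. None passed in edgeR, 6 were lower and 2 higher at an unadjusted p under 0.05, and DESeq2 called 3 lower (C1qa, C1qb and Itgam). Of all genes tested, 51.5% were below 0, and 8.32% were lower and 8.44% higher at that unadjusted p. DESeq2 called 1.8% of them lower and 2.26% higher. These shares are also the background of the lists that follow. C1qa, a chain of the complement initiator C1q, read 69.1, 74.7 and 83.9 CPM in shScr and 59.8, 57.5 and 62.8 CPM in shFabp7, groups that did not overlap.

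Genes that carry the signal below ITAM receptors had a median of -0.24, with 14 of 15 tested below 0. In edgeR 0 passed, 5 were lower and 1 higher at an unadjusted p under 0.05, and the 2 most abundant, the kinase gene Lyn and the Rac activator Dock2, had -0.05 and -0.10. The exception was Blnk, an adaptor of B cell receptor signalling, named after its values were seen. It read 4.14, 7.23 and 5.89 CPM in shScr and 15.0, 11.1 and 9.66 CPM in shFabp7, groups that did not overlap. DESeq2 called it higher, with an adjusted p of 0.00237, where edgeR gave an adjusted p of 0.0961.

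On the side of the ligands, Cx3cl1, the fractalkine that binds the receptor CX3CR1, had 0.29 (SE 0.09), and Cd47, a signal that restrains phagocytosis, 0.09 (SE 0.07). The CSF1R ligands Csf1 and Il34, named after their values were seen, had -0.17 (SE 0.08) and 0.10 (SE 0.08). Of the 7 ligand genes 4 were below 0, with a median of -0.11, and DESeq2 called 1 lower, Cd200. In a list of 11 receptors of these and related signals, 6 were below 0 and the median was -0.07. Its most abundant members were Sirpa, the receptor of CD47, at 0.19 (SE 0.06), and Mertk, a receptor for clearing dead cells that astrocytes also express. Mertk read 58.8, 68.1 and 65.5 CPM in shScr and 81.6, 89.0 and 94.6 CPM in shFabp7, groups that did not overlap. Its log2 fold change was 0.46 (SE 0.08), with an adjusted p of 0.0564 in edgeR, and it was the 1 gene of that list that DESeq2 called.

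**Figure D5:**
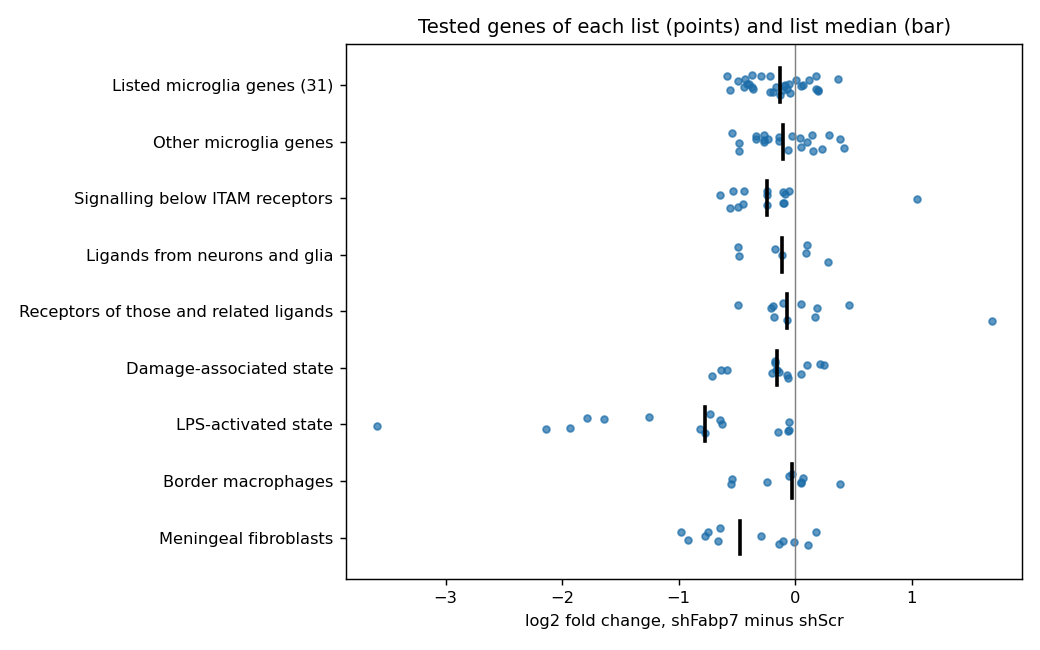
Log2 fold change (shFabp7 minus shScr, horizontal axis) of each tested gene, 1 point per gene, in 9 gene lists, with the list median as a bar. The LPS-activated list has the lowest median, -0.78, and the border macrophages have the median nearest 0, -0.03. The median of the listed microglia genes, -0.13, lies between them.

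Lists of 2 activated states, also chosen with earlier results of these data known, were set beside the members. For the LPS-activated state all 15 tested genes were below 0, with a median of -0.78, and for the damage-associated state 11 of 15, with a median of -0.16. Neither had a gene past the threshold in edgeR. At an unadjusted p under 0.05, 9 of the first were lower and 0 higher, and 4 of the second were lower and 2 higher. DESeq2 called 4 of the first lower and 1 of the second. Of all genes tested, 51.5% were below 0, 8.32% were lower at an unadjusted p under 0.05 in edgeR, and DESeq2 called 1.8% lower. The most abundant of the first by CPM, Nfkbia, an inhibitor of NF-kB, and Fcgr2b, an inhibitory Fc receptor, had -0.05 (SE 0.12) and -0.65 (SE 0.16). Apoe, the apolipoprotein that astrocytes also make, and Fth1, ferritin heavy chain, were the most abundant of the second, at -0.17 (SE 0.08) and 0.10 (SE 0.11). Of the second list, Cst7, Itgax and Clec7a averaged 0.417, 0.522 and 0.397 CPM and were not tested.

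Cells other than microglia can supply some of these RNAs, and marker lists give their levels. Border macrophages, which share many genes with microglia, had a summed level of 62.2 to 74.3 CPM over their 12 markers in shScr and 59.7 to 65.0 CPM in shFabp7, an overlap. Of 9 tested, 5 were below 0, and the 2 most abundant, Stab1 and Mrc1, had -0.06 and -0.55. Markers of monocytes and neutrophils were near 0: the neutrophil genes Ly6g and Mmp8 had 0 reads in all libraries, and 12 of the 14 genes were too low to test. The summed level of that list, most of it Csf3r, was 14.1 to 16.8 CPM in shScr and 12.4 to 14.3 CPM in shFabp7. T, NK and B cell markers summed to 5.05 to 9.61 CPM in shScr and 4.93 to 20.9 CPM in shFabp7, nearly all of it Cd4, and 11 of 12 were too low to test.

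Markers of 3 neighbouring tissues mostly had values below 0, as the members did. For choroid plexus and ependyma 6 of 6 tested were below 0, with a median of -0.65, and summed levels were 17.3 to 38.2 CPM in shScr and 11.5 to 18.5 CPM in shFabp7. For hippocampus 8 of 9 were below 0, with a median of -0.59. For meningeal fibroblasts the summed level was 212, 159 and 200.3 CPM in shScr and 159, 122 and 126 CPM in shFabp7, with a median log2 fold change of -0.47 and 10 of 12 below 0. In edgeR 0 of the 3 lists' genes passed, while 4, 1 and 5 were lower at an unadjusted p under 0.05, in the order given, and DESeq2 called 0, 1 and 4 lower. Excitatory neuron markers had the other sign, with 10 of 10 above 0, a median of 0.51 and summed levels of 4473 to 6361 CPM in shScr and 7125 to 8271 CPM in shFabp7. The part of any of these tissues in the members' values was not tested.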

How the data were processed

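RNA-seq libraries of mouse cortex, 3 per group, were grouped and numbered by their titles. Values are raw counts of reads for each gene, not normalized, in featureCounts' column layout per the file headers of the deposited tables. Tools listed without role or order in the submitters' processing notes were STAR 2.5.2b, Trimmomatic 0.36, DESeq2 and Subread 1.5.2, and the build was GRCm39. The sources used here do not give a strand setting. Gene positions in the files matched GENCODE M21 (GRCm38) for 91.4% of 48970 gene identifiers, including 28 of the 31 members, and are read as GRCm38.

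Genes were filtered with filterByExpr (17185 kept), scaled by TMM and tested across all genes with edgeR 4.0.16 (R 4.3.3, robust quasi-likelihood fit, group alone), with Benjamini-Hochberg adjustment and a threshold of 0.05. SEs were derived from each fold change and its F statistic (fold change over root F). CPM are TMM-scaled, and RPKM divide them by the exon length in the files. The code was tested on simulated counts. Alternatives used DESeq2 1.42.0, limma 3.58.1 (voom with quality weights), other scalings and filters, the replicate number as a block, sex, a regional score (chosen after seeing the data) and each library left out. The labels do not say that samples are separate animals, though each group held libraries read as male and libraries read as female. The p-values reflect sample-to-sample spread, part of which may be technical.

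The members and lists were chosen with earlier results of these data known. Values in every library were printed for the 3 members of each role with the lowest p and the 2 with the highest RPKM. In the ligand, receptor, ITAM signalling, activated-state and border macrophage lists, the 2 genes with the highest mean CPM were named. The remaining lists did not follow this naming rule fully. Those of astrocytes, oligodendrocytes and endothelium are not described. P2ry12, Trem2, Siglech, Tmem119 and other genes given by library outside that rule were chosen after their values were seen. Promoter windows came from RefSeq (GRCm38.p6). Lilrb4a had no identifier in the files under that symbol. One gene that the naming rule selects is not reported here.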

Additional observations from a re-analysis of the deposited data

How the results depend on the processing

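No member was called higher in edgeR or under any of the 16 alternatives. The number called lower, 0 in edgeR, was 2 in DESeq2 (Olfml3 and Fcrls), 5 with no filter (with Cx3cr1, Ly86 and Spp1), 1 in limma-voom (Olfml3) and 3 with the replicate block (Olfml3, Fcrls and Spp1), and 0 to 2 with each library left out, at most without shScr library 2 (Olfml3 and Spp1). It was 1 without shScr library 1 (Olfml3). More genes passed as lower in these settings across the whole table too. There were 10 in edgeR (0.0582%), 315 in DESeq2 (1.02%), 824 with no filter (2.66%) and 44 in limma-voom (0.256%). With the block there were 279 (1.62%), without shScr library 1 81 (0.462%) and without shScr library 2 396 (2.26%). Each share is of the genes tested in that setting. In DESeq2 these were 30932, while its 1.8% above is of the 17185 genes tested in edgeR. Deviations of libraries with the same number were weakly correlated (0.081, 0.15 and 0.057), against -0.18 to 0.099 for libraries with different numbers. The numbers were not taken as pairs in the main fit, and the block on them is an alternative. The 12 members lower at an unadjusted p under 0.05 became 4 with the regional score and 7 to 11 with a library left out, 7 each without shScr library 3 or shFabp7 library 2. Over all genes the same count went from 1429 (8.32%) to 527 (3.07%) with the regional score. With a library left out it was 843 to 1831 (4.77% to 10.4%). Single values moved by over 1.5 times in at least 1 setting for 15 of the 16 members with overlapping groups, 5 of the 14 apart and lower, and Gpr34. The median over the members stayed between -0.16 and -0.096. With a library left out, 14 to 18 members had every remaining shFabp7 library below every remaining shScr library. That count uses no fit, so filters, the block and covariates could not change it. Leaving a library out could only keep or raise it, since groups that are apart stay apart with fewer libraries. The share of all genes was not computed for that count with a library left out. Signs turned for Slc2a5 (-0.00027 with no filter, -0.091 with sex, -0.18 to 0.18 with a library left out), Hpgds (-0.017 with sex, -0.072 to 0.19 with a library left out), Fcgr3 (-0.22 to 0.0033 with a library left out) and, with the regional score, Csf1r (0.022), Selplg (0.11), Lyz2 (0.11) and Unc93b1 (0.024). The cause was not tested. Depth limits the members of few reads most, such as Spi1.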

Other observations

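The LPS-activated list held some of the lowest values beside the microglia genes, from transcripts of few reads. Tlr2, the receptor of bacterial lipoproteins, had 58, 74 and 69 reads in the control libraries and 21, 19 and 39 in the knockdown libraries. Saa3, an acute-phase protein gene, had a log2 fold change of -2.14 (SE 0.36) and Fcgr4, an activating Fc receptor gene, -1.64 (SE 0.44). By contrast Cd14, the LPS co-receptor gene of myeloid cells, had -0.06 (SE 0.22) and Fcgr1, the high-affinity IgG receptor gene, -0.14 (SE 0.21), both with overlapping groups. These genes were named after their values were seen.

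Among the other microglia genes, Ptgs1, which encodes cyclooxygenase 1, had 0.38 (SE 0.10) and Rnase4, a secreted ribonuclease gene, 0.42 (SE 0.15). In both, every shFabp7 library lay above every shScr library, as for Gpr34. Ptprc, the leukocyte phosphatase CD45, and P2ry6, a UDP receptor, had values of -0.48 each (SE 0.13 and 0.19), with every shFabp7 library below every shScr library. These too were named after their values were seen.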
